A study of Mus musculus with 9 samples.

Results

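The regions described here had no ATAC-Seq peak in the starting fibroblasts (D0) and a peak in D3, D6T-, D12S+, D16S+ and iPSCs. They numbered 4676 of the 204843 accessible regions obtained when overlapping peaks of the 7 time-course libraries were merged on chromosomes 1 to 19, and they are called D3-onwards regions below. They were chosen by these peak calls, so that their absence at D0 and their presence afterwards is how they were picked and not a result. Peaks of the day 9 library were left free by the rule, and the siRNA libraries played no part in it.

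The study followed mouse embryonic fibroblasts (MEFs), whose Oct4 gene carries a GFP reporter, after infection with pMXs retroviruses that express Oct4, Sox2, Klf4 and c-Myc. D0 and D3 cells were not sorted, D6T- and D9T- cells were Thy-1-negative cells of days 6 and 9, and D12S+ and D16S+ cells were SSEA-1-positive cells of days 12 and 16. The iPSCs were the reprogrammed line at the end of the route. The labels give all infected groups the same reprogramming conditions, without feeder cells and in a medium with LIF, basic FGF, ascorbic acid and CHIR99021. D6 siNT cells had received a non-targeting siRNA and D6 siH3.3 cells an siRNA against the histone variant H3.3 early in reprogramming; both come from day 6, and their labels give Thy-1-negative sorting while the list of libraries in the study names no sort. Every condition was 1 library without a replicate, so no difference between libraries has a replicate check, no test was made, and all values are a description of these 9 libraries.

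ATAC-Seq uses the Tn5 transposase, which cuts DNA where nucleosomes and other proteins leave it accessible. Fibroblasts hold many of their enhancers open with AP-1, RUNX and TEAD factors. During reprogramming these sites lose accessibility, whereas binding sites of OCT4 and SOX2, which can occupy a joint motif, gain it. Promoters rich in CpG dinucleotides tend to stay accessible in most cell types, whether or not the gene is strongly transcribed. The change from fibroblast to pluripotent cell also passes through a mesenchymal-to-epithelial transition, in which cell junction genes are switched on.

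The sequences below show promoters, some of them rich in CpG, and the rare regions with OCT-SOX sites. Each is the 200 bp around the highest summit of the region, on the plus strand of mm9, read from that genome. The first set holds 3 of the promoter members with the strongest signal and, chosen after its values were seen, the promoter of the tight junction gene Cldn3. Capitals mark matches to the motifs that were searched: CCANNAGGG (CTCF) and GCCNNNGGC (TFAP2) in Svip, GCCNNNGGC in Herc3 and Strbp, and GGGNGTGG (KLF, on the minus strand) in Cldn3.
Svip (chr7:59261419-59261618): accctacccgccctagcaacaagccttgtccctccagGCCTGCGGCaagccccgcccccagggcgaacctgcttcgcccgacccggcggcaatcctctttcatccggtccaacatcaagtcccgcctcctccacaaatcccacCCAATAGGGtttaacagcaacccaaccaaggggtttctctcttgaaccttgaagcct
Herc3 (chr6:58781635-58781834): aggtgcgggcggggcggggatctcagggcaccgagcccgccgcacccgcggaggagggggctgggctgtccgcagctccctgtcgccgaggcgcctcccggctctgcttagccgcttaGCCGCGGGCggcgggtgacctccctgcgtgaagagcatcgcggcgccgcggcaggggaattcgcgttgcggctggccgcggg
Strbp (chr2:37558933-37559132): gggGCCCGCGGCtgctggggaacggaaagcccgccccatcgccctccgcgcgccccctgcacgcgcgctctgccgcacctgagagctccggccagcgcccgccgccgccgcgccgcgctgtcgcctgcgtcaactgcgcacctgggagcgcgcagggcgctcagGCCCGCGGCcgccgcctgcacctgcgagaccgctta
Cldn3 (chr5:135461868-135462067): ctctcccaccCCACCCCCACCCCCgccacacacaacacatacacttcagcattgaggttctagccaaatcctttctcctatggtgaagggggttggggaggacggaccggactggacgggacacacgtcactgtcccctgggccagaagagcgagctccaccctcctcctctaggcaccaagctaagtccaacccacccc

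The windows of Herc3 and Strbp held 29 and 33 CpG dinucleotides with a GC content of 77.0% and 79.5%, against 10 in Svip and 6 in Cldn3, whose window is not CpG-rich (ratio of observed to expected CpG 0.353). The second set holds matches to the OCT-SOX composite, in which SOX2 and OCT4 sites lie side by side (CATTGT, 1 free base, ATGCAAAT, either strand), marked in capitals. Astn2 was the only one of the listed regions with at most 2 mismatches, and the other members were chosen after their values were seen, as the strongest with 1 mismatch. Pipox was matched at its promoter-proximal exon, Plod2 names the nearest gene of an intergenic region 335379 bp away, and the Atp8a1 region lies in the interval of that gene.
Astn2 (chr4:65991750-65991949): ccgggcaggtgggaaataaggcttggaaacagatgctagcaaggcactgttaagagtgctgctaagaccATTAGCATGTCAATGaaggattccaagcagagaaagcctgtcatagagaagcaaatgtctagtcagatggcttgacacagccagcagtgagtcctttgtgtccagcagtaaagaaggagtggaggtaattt
Pipox (chr11:77707451-77707650): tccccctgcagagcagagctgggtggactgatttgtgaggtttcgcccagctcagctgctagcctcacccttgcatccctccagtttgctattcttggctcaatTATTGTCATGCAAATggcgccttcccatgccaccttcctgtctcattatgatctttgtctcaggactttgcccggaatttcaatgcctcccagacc
Plod2 (chr9:92825439-92825638): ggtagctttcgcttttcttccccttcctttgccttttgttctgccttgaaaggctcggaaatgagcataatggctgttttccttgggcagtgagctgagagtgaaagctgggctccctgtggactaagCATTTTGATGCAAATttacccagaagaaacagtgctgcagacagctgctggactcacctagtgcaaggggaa
Atp8a1 (chr5:68024705-68024904): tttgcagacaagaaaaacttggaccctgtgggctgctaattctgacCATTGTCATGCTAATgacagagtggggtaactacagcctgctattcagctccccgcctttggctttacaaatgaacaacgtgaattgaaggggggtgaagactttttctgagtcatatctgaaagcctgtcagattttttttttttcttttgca

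Libraries held between 13213117 (D9T-) and 31714845 (D0) tags. The level of a region is the pileup at its highest summit, the number of extended tags over that base, per 1000000 tags of the library (CPM), and it exists only where a peak was called. The lowest summit called lay between 0.331 CPM (D3) and 0.530 CPM (D9T-), and was 0.347 CPM at D0. Promoter peaks of pluripotency markers followed the labels for the late cells. Of 8 such markers 4 had one at D0, D3 and D6T-, 2 in D9T-, 7 at D12S+ and all 8 at D16S+ and in iPSCs. The promoters of Nanog, Zfp42, Dppa5a and Tdgf1 had none before D12S+, and that of Fut4 had none in D9T- or D12S+. Of 2 epithelial markers, Cdh1 and Epcam, both had one at D12S+, D16S+ and in iPSCs. Before D12S+ only Cdh1 had one, at D3. Of 7 fibroblast markers 5 had a promoter peak at D0, 7 at D3, 6 at D6T-, 3 in D9T-, 5 at D12S+ and D16S+, and 3 in iPSCs. Among them Thy1 had a promoter peak at D0, D3, D12S+, D16S+ and in iPSCs, and none at D6T- or D9T-. Of 4 markers of blood, endothelium and melanocytes, 2 had one at D0, D3, D6T- and D12S+, 1 at D16S+ and in iPSCs and none at D9T-.

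How far the missing D0 peak speaks for closed chromatin depends on the D0 library, whose signal was weak throughout. Over the 12060 regions with a peak in all 9 libraries, the median summit was 0.883 CPM at D0, 1.98 at D3, 3.41 at D6T-, 1.36 in D9T-, 2.1 at D12S+, 1.98 at D16S+ and 1.09 once the cells were iPSCs. The median ratio of D3 to D0 in these regions was 2.30, with 2.42 at promoters and 2.19 elsewhere. A region that differed from D0 to D3 by no more than this would need 0.797 CPM at D3 to be called at D0. This level was reached by 1279 of the members (27.4%) and missed by 3397 (72.6%). For the larger group the files cannot tell a region that was closed at D0 from one that fell below the D0 limit, so the label of opening at D3 cannot be checked for it. In the 1279 a D0 peak would have been called at that ratio and was not. The ratio is a median, so members with a larger ratio could have been missed at D0 in this group too. The lower quartile of its D3 summits was 0.893 CPM, close to the level needed. The group is called the 1279 stronger members below, and its values are given where they differ.

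Most members lay more than 1 kb from a D0 peak. The median gap to the nearest D0 peak was 5694 bp, the smallest was 11 bp, and 629 members (13.5%) had a D0 peak within 1 kb. Regions called at D3 and D6T- but in none of D0, D12S+, D16S+ and iPSCs had a median gap of 7385 bp. In regions first called at D6T- and kept afterwards it was 9186.5 bp. The peaks of the 5 libraries of the rule had at least 1 base in common in 4423 members (94.6%), whereas 253 were joined through peaks that only overlapped in a chain. The members were 250 to 3872 bp wide with a median of 727 bp, against 365 bp for all regions. They occurred on every autosome, from 1.33 per Mb on chromosome 16 to 2.44 per Mb on chromosome 17, and made up 1.91% to 2.57% of the regions of a chromosome. At the limit of the rule, the first 3 members in genome order with the lowest score (chr1:98768113-98769126 at Slco4c1, chr1:138109359-138109770 and chr1:177049063-177049710 in Rgs7) had 10 tags at D3, with a −log10 q-value of 1.51. Just outside it, the first 3 regions in genome order with peaks in all of these libraries had a D0 summit of 0.347 CPM with a −log10 q-value of 1.72, at chr1:37988629-37989051, at chr1:72870150-72871908 (Igfbp2) and at chr1:80754694-80755512 (Dock10). These 3 are among 16191 regions called at D0 and in the 5 libraries, and their D3 summits of 0.827, 0.628 and 0.595 CPM lay in the range of the members.

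Members lay at promoters more often than accessible regions in general. Midpoints were in a promoter (3 kb upstream of a TSS) in 1265 members, or 27.1% (95% Wilson interval 25.8 to 28.3, which covers the sampling of regions only), in a genebody in 44.8% and in intergenic DNA in 28.2%. Over all regions the shares were 13.6%, 47.6% and 38.9%. A TSS lay inside 1582 members (33.8%), against 8.59% of all regions, and 1484 of these were TSSs of protein-coding genes, 35 of lincRNAs and 63 of other genes. The midpoint lay in an exon in 25.4% of the members against 10.8% of all regions, and outside promoters in 22.3% against 8.68%. The median distance to a TSS was 3276.5 bp, against 12887 bp for all regions.

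The members were also rich in CpG. The window at the highest summit had a GC content over 50% and a ratio of observed to expected CpG over 0.6 in 1558 members (33.3%), compared with 8.40% of all regions. By position and composition they stood between the 13097 regions with a peak in all 7 time-course libraries (46.9% promoter, 64.9% CpG-rich) and the 1808 regions first called at D6T- and kept afterwards (14.4% promoter, 6.31% CpG-rich). The 14997 regions called at D3 and D6T- but in none of D0, D12S+, D16S+ and iPSCs were the least promoter-like, with 9.24% at promoters and 1.81% CpG-rich. Among the 1279 stronger members 31.0% were promoters, 47.0% held a TSS and 44.6% were CpG-rich.

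**Figure D1:**
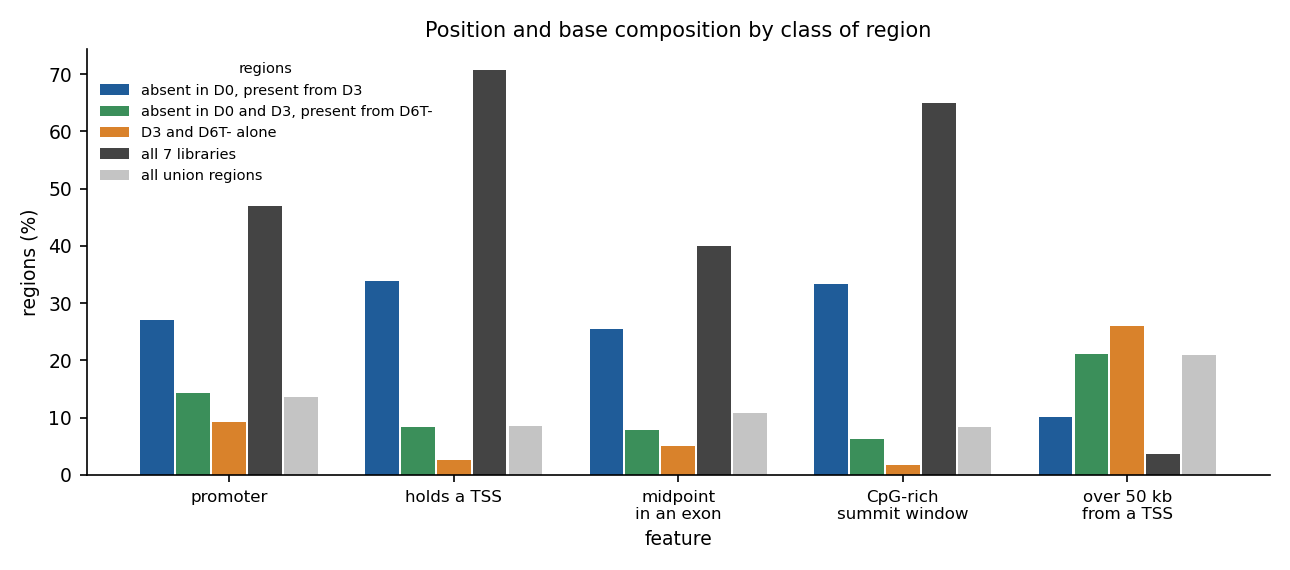
Percentage of regions (vertical axis) with each feature (horizontal axis), for 5 classes of region shown by colour: D3-onwards members (4676), regions first called at D6T- (1808), regions at D3 and D6T- alone (14997), regions in all 7 libraries (13097) and all 204843 regions. The members lay between the regions in all 7 libraries and the later or transient regions for promoters, TSSs, exons and CpG-rich windows.

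Levels were given by the calls that chose the members and are a description. The median summit of the members was 0.628 CPM at D3, 1.12 at D6T-, 0.965 at D12S+, 0.945 at D16S+ and 0.715 in iPSCs. In tags these medians were 19, 24, 17, 20 and 19. The highest summit of the time course was in D6T- for 2301 members (49.2%), in D16S+ for 1216 (26.0%), in D12S+ for 785 (16.8%), in iPSCs for 214 (4.58%), in D9T- for 100 (2.14%) and in D3 for 60 (1.28%). D6T- was also the library with the strongest signal in regions called everywhere, so the levels were divided by the median of those regions in each library.

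On that relative scale the order changed. The median of the members was 0.317 of the median of regions in all 9 libraries at D3, 0.329 at D6T-, 0.459 at D12S+, 0.476 at D16S+ and 0.655 in iPSCs. Within members, the relative level was higher in iPSCs than at D3 in 94.1% of the members, with a median difference of 1.01 on the log2 scale, while in CPM it was higher in 59.8% with a median difference of 0.15. The step from D3 to D6T- had a median of 0.78 in CPM but 0.00 relative to these regions, and the step from D16S+ to iPSCs was -0.41 in CPM and 0.46 relative to them. The highest relative level was in iPSCs for 60.1% of the members and in D6T- for 2.07%. A weak library shows only summits above its own limit. This limit was 0.345 of that median in iPSCs, 0.389 in D9T- and 0.333 in D6 siNT and D6 siH3.3. It was 0.167 at D3, 0.110 at D6T-, 0.216 at D12S+ and 0.214 at D16S+. The libraries with the higher limits thus also had the higher relative medians. The part of this limit in the higher relative level of iPSCs was not tested. Promoter members and the others moved alike, with medians from D3 to iPSCs of 0.96 and 1.05 on the relative log2 scale.

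**Figure D2:**
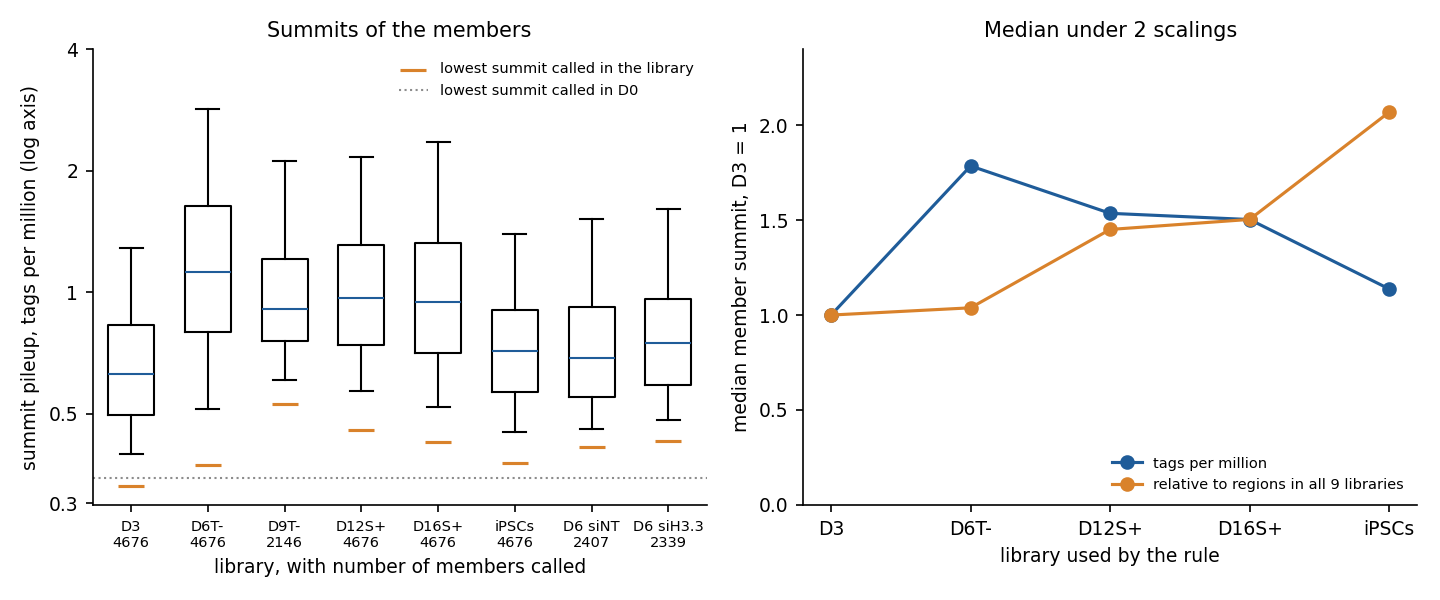
Left, summit pileup of the members per 1000000 tags on a log axis, for each library (number of members called under its name); boxes give quartiles, whiskers the 5th and 95th percentiles, orange ticks the lowest summit called in that library and the dotted line that of D0. Right, the median of the 4676 members relative to D3 in the 5 libraries of the rule, in CPM (blue, highest at D6T-) and relative to regions called in all 9 libraries (orange, highest in iPSCs).

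The libraries that the rule did not use were also read at the members. Members had to be called in 5 libraries, which by itself favours calls in further libraries. Higher shares than in regions without that demand are therefore a description and not a result. D6 siNT had a peak in 2407 members (51.5%, interval 50.0 to 52.9), against 20.1% of all regions. D6 siH3.3 had one in 2339 members (50.0%, interval 48.6 to 51.5), against 20.4%, and D9T- in 2146 (45.9%, interval 44.5 to 47.3), against 16.1%. All 3 libraries called 1430 members (30.6%) and none of them called 1452 (31.1%). Over all regions these shares were 12.1% and 73.4%, and over all regions called in D6T- 19.4% and 58.2%. The shares were 78.3% in D6 siNT, 76.0% in D6 siH3.3 and 68.6% in D9T- for the 1279 stronger members, and 41.4%, 40.2% and 37.4% for the rest. Regions in all 7 libraries had a peak in D6 siNT in 95.2% and in D6 siH3.3 in 94.8%. Regions first called at D6T- had a peak in D6 siNT in 24.4% and in D9T- in 32.9%, and those at D3 and D6T- alone in 24.7% and 16.3%.

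These shares were higher the stronger the region was at D6T-. In the members with the weakest D6T- summits (up to 0.795 CPM) 18.8% had a peak in D6 siNT, 18% in D6 siH3.3 and 15.6% in D9T-. Other regions called in D6T- at that strength had 6.29%, 6.48% and 4.07%, with a slightly lower median summit of 0.608 against 0.654 CPM. These other regions needed no call in any further library, unlike the members, so the 2 groups differ by the rule itself. In the next bin, up to 1.12 CPM, 37.3% of the members and 20.2% of the other regions were called in D6 siNT, and in the one up to 1.64 CPM 61.2% and 44.6%. Above it the shares came together in D6 siNT, at 90.5% and 88.4%, and in D6 siH3.3, at 89.5% and 88.7%. At D9T- they were 86.7% and 78.2% in that bin. The other regions in that bin had the higher median D6T- summit, at 2.62 against 2.15 CPM, so the 2 groups were not matched in strength there.

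**Figure D3:**
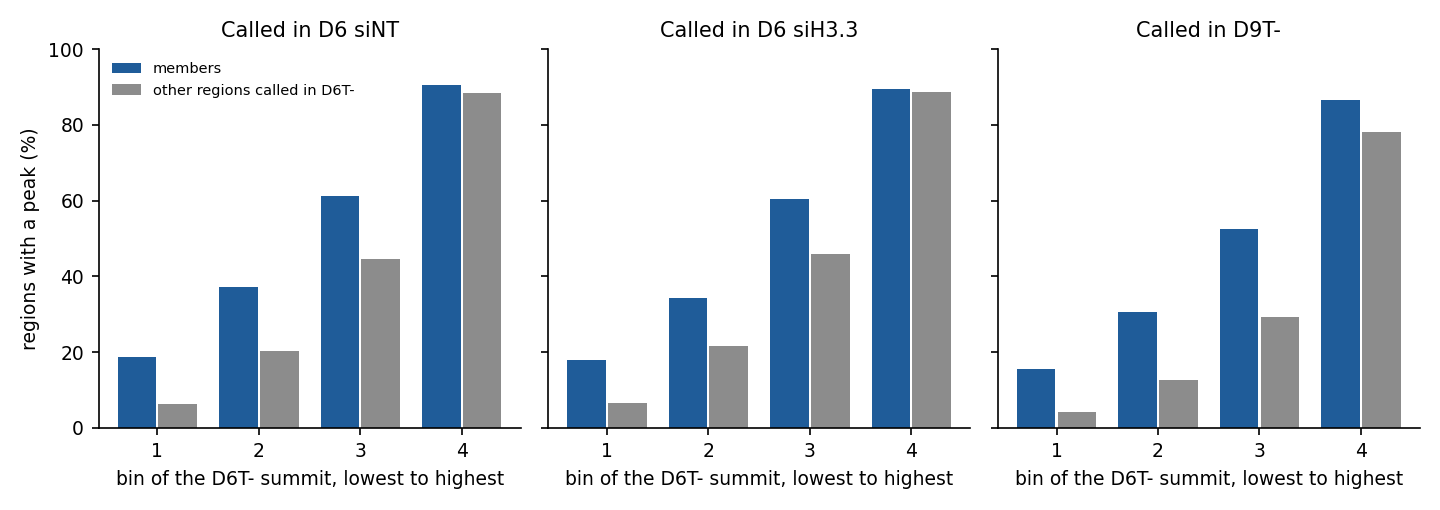
Percentage of regions with a peak (vertical axis) in D6 siNT, D6 siH3.3 and D9T-, the libraries that the rule did not use, by bin of the D6T- summit from lowest to highest (horizontal axis; limits 0.795, 1.12 and 1.64 CPM). Members (blue) were called more often than other regions called in D6T- (grey) in every bin, with the smallest gaps in the highest bin. Members had to be called in 5 libraries and the other regions in D6T- only, which favours the members. In that bin the other regions had the higher median D6T- summit (2.62 against 2.15 CPM).

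The members had similar levels in the D6 siH3.3 and D6 siNT libraries. Both siRNA libraries called 1811 members (38.7%), D6 siNT alone 596 (12.7%) and D6 siH3.3 alone 528 (11.3%). Over all regions 15.8% were called in both, 4.30% in D6 siNT alone and 4.66% in D6 siH3.3 alone. In the shared members the median log2 ratio of D6 siH3.3 to D6 siNT was 0.05, with quartiles at -0.22 and 0.31, while over the 32330 regions called in both it was 0.08. The summit was over 1.5-fold higher in D6 siH3.3 in 172 members (9.50%), against 9.59% of all these regions, and over 1.5-fold lower in 95 (5.25%), against 5.17%. Both shares were close to those of accessible regions in general. With 1 library per siRNA, the size of a difference that the spread between libraries could hide is not known. Across the shared members the summits of the siRNA libraries had a Spearman coefficient of 0.65 (n = 1811 regions, which share the library and its depth and are not replicates).

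Few members held the motifs of fibroblast factors. The AP-1 motif (TGANTCA, either strand) lay within the 200 bp of the highest summit in 330 members (7.06%, interval 6.36 to 7.83). It did so in 24.2% of all regions and in 39.8% of those at D3 and D6T- alone, but in 8.39% of the regions in all 7 libraries. AP-1 factors such as FOS and JUN drive fibroblast enhancers. Over all regions the motif was less frequent at promoters (14.2%) and in CpG-rich windows (3.4%), so the comparison was repeated without them: 10.0% of the 2541 remaining members, 27.1% of all such regions, 40.9% of those at D3 and D6T- alone, 21.1% of those in all 7 libraries and 9.69% of those first called at D6T-. RUNX (TGTGGTT) and TEAD (ACATTCC) matches also had lower shares in the members, at 3.17% and 2.69% against 5.89% and 4.96% of all regions. This was not particular to the members: the shares were 2.55% and 2.45% in the regions in all 7 libraries. In those first called at D6T- they were 3.98% and 4.15%.

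KLF and TFAP2 motifs had higher shares in the members than in all regions. GGGNGTGG, the site of KLF4 and related factors, lay in 811 members (17.3%) against 10.1% of all regions, and outside promoters and CpG-rich windows in 17.7% against 9.40%. The TFAP2 letters GCCNNNGGC lay in 15.4% against 8.01%, a difference that was smaller outside CpG-rich windows and promoters (8.78% against 6.53%). CTCF letters (CCANNAGGG) lay in 9.05% of the members and 5.48% of all regions. These shares were not particular to the members: regions in all 7 libraries held KLF letters in 16.8% and TFAP2 letters in 19.2%, and regions first called at D6T- held CTCF letters in 9.24%. Sites of ESRRB (TCAAGGTCA), a pluripotency factor, were rare everywhere, with 0.171% of the members and 0.426% of all regions.

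OCT-SOX composites were uncommon in the members, and in the other classes too. The composite with at most 2 mismatches lay in 57 members (1.22%, interval 0.942 to 1.58), in 0.587% of all regions and in 0.145% of the regions in all 7 libraries. The regions first called at D6T- held it in 3.43% (interval 2.68 to 4.37), and the octamer ATTTGCAT in 5.25%, against 2.14% of the members and 1.68% of all regions. The SOX letters CATTGTT lay in 3.51% of the members, 4.01% of all regions and 5.59% of the regions first called at D6T-. Without promoters and CpG-rich windows the composite shares were 1.81% in the members, 3.73% in the regions first called at D6T- and 0.658% in all regions. Among the 1279 stronger members 13 (1.02%) held the composite and 8.29% the AP-1 motif. A match is a string of letters and not a bound site.

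**Figure D4:**
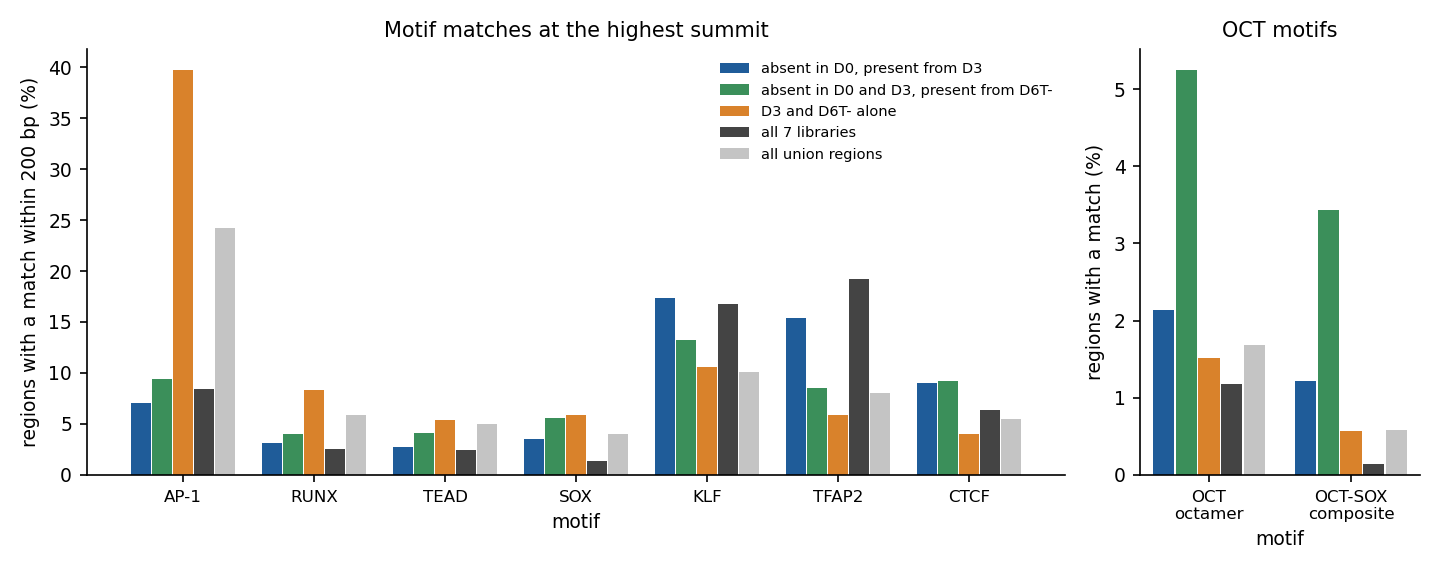
Percentage of regions with a motif match (vertical axes, different scales) in the 200 bp at the highest summit, by motif (horizontal axis) and class of region (colour, as in the plot of position). AP-1 matches were found in 7.06% of the members and 39.8% of regions at D3 and D6T- alone, and the OCT-SOX composite in 1.22% of the members and 3.43% of regions first called at D6T-.

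The strongest members, ranked by the lowest of their summits in the 5 libraries of the rule, included promoters and distal sites. The region at the promoter of Svip (chr7:59260764-59262079), which encodes a small protein that binds the ATPase VCP, ranked first. It had 2.05 CPM at D3, 4.35 at D6T-, 4.24 in D9T-, 5.68 at D12S+, 5.29 at D16S+ and 2.45 in iPSCs, with 1.97 in D6 siNT and 2.20 in D6 siH3.3. In CPM its levels were therefore lowest in D6 siNT and at D3, and highest at D12S+. Levels of single regions here and below are in CPM, and they were not divided by the median of regions in all 9 libraries. The promoter of Herc3 (chr6:58780958-58782137), an E3 ubiquitin ligase, had 1.95 CPM at D3, 3.55 at D6T-, 2.42 in D9T-, 2.55 at D12S+, 2.08 at D16S+ and 1.84 in iPSCs. That of Strbp (chr2:37558143-37559621), which encodes an RNA-binding protein, had 1.79, 2.15, 1.51, 4.31, 3.26 and 2.26 CPM in the same order. The promoter of the neuronal microtubule gene Mtap2 (chr1:66221424-66222303) had 1.72 CPM at D3 and 3.12 at D16S+.

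Of the distal regions among the strongest, that in an intron of Astn2 (chr4:65991488-65992187), 73663 bp from the nearest protein-coding TSS, held the composite printed above. Its summit was 1.75 CPM at D3, 5.80 at D6T-, 6.05 in D9T-, 3.86 at D12S+, 4.01 at D16S+ and 1.77 in iPSCs. It was 2.98 and 3.48 CPM in D6 siNT and D6 siH3.3. In CPM it was highest in D9T- and D6T-, and D6T- was also the library with the strongest signal in regions called everywhere. An intron of Sos1 (chr17:80867679-80868440), which encodes an exchange factor for RAS, reached 8.18 CPM at D6T- from 2.35 at D3 and had 1.73 in iPSCs. The region 4503 bp from Ccnc (chr4:21649966-21650724), the gene of cyclin C in the Mediator kinase module, had 1.92 CPM at D3, 5.80 at D6T- and 1.84 in iPSCs, and carried AP-1, SOX and ETS letters. Others were intergenic regions near Pik3c3 (chr18:30280934-30281965) and Sema3e (chr5:13982052-13983035), and an intron of 2810055G20Rik (chr16:77400316-77401342). All of the 12 strongest members had a peak in D9T- and in both siRNA libraries.

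A member lay between the promoter and the TTS of 2935 of 21418 protein-coding genes on these chromosomes (13.7%), and 2513 of the genes held exactly 1. Of the 2935 genes, 577 (19.7%) had no region called at D0 anywhere in that interval. Of all 21418 protein-coding genes, 15343 had a D0 region there, so genes with a member lacked one less often than genes in general. Gene lists were read against the share of 13.7%, with the reservation that longer genes hold more regions. A member lay in 13 of 34 epithelial genes (38.2%), 11 of 30 genes of LIF, BMP, Wnt and FGF signalling (36.7%, with Fgfr2, whose members cannot be assigned to it), 7 of 20 genes of RNA and translation control (35.0%), 8 of 29 of chromatin and DNA methylation (27.6%), 6 of 25 of cell cycle and telomere (24.0%), 6 of 31 of pluripotency (19.4%) and 5 of 32 mesenchymal and fibroblast genes (15.6%). The last 2 lists were the nearest to the share of all protein-coding genes.

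Epithelial genes included the junction genes Epcam, Cldn3, Ocln, Tjp3, Marveld2 and Marveld3, the membrane protease St14 with its inhibitors Spint1 and Spint2, the splicing factor Esrp2 and the transcription factors Grhl3 and Ovol2. Epcam, Cldn3, Marveld2 and Spint2 had no D0 region. At Cldn3, which encodes a claudin of tight junctions, the member over the promoter (chr5:135461115-135463130) had 0.628 CPM at D3, 1.54 at D6T-, 0.984 in D9T-, 1.76 at D12S+, 2.55 at D16S+ and 1.20 in iPSCs, with 0.643 in D6 siNT and 1.07 in D6 siH3.3. At the adhesion gene Epcam (chr17:88034956-88036702, midpoint 510 bp inside the gene) the summits were 0.496 CPM at D3, 0.888 at D6T-, 1.53 at D12S+, 2.08 at D16S+ and 0.564 in iPSCs, with 0.413 in D6 siNT and no peak in D9T- or D6 siH3.3. Both were thus lowest at D3 among the rule's libraries and highest at D16S+. Spint2 (chr7:30066194-30067446) followed the same order, with 0.397 CPM at D3 and 1.65 at D16S+, whereas Marveld2 (chr13:101386324-101387020) stayed between 0.430 and 0.841 CPM. Of the 9 listed genes with no D0 region, in this and the other lists, the strongest members of Gdf3 and Bub1 alone reached the 0.797 CPM at D3 discussed above, so for Epcam, Cldn3, Marveld2, Spint2, Foxd3, Bmp4 and Nodal a site below the D0 limit cannot be told from a closed one.

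Pluripotency genes with a member were Sall1, Gdf3, Mycn, Tbx3, Dnmt3l and Foxd3. The midpoint of the Dnmt3l member lay 91 bp from the TSS of Aire and 1194 bp from that of Dnmt3l. That of the Foxd3 member lay 103 bp from the TSS of BX005053.1 and 1340 bp from that of Foxd3. These 2 members cannot be assigned to the listed gene alone. Gdf3, which encodes a ligand of the TGF-beta family, and Foxd3, a forkhead factor, had no D0 region. The member in an intron of Gdf3 (chr6:122557733-122558906) had 0.860 CPM at D3, 1.82 at D6T-, 2.27 in D9T-, 1.42 at D12S+, 0.850 at D16S+ and 0.752 in iPSCs, and 1.24 and 1.34 CPM in D6 siNT and D6 siH3.3. In CPM this member was highest in D9T- and D6T- and lowest in iPSCs. Regions called in all 9 libraries had medians of 3.41 CPM in D6T- and 1.09 in iPSCs, so this order was not read as a time course. Foxd3 (chr4:99323819-99324842) had 0.364 CPM at D3 and 0.511 to 0.850 CPM in the other libraries of the rule, and no peak in D9T- or the siRNA libraries. Sall1 (chr8:91566425-91568302), a zinc finger factor, had 0.893 CPM at D3, 1.26 at D6T-, 1.59 at D12S+, 2.08 at D16S+ and 1.24 in iPSCs. No member lay in the intervals of Nanog, Pou5f1 or Sox2.

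Among signalling genes Bmp4 and Nodal, ligands of the TGF-beta family, had no D0 region. Bmp4 (chr14:47006779-47007802) had 0.430 CPM at D3, 1.31 at D6T-, 1.31 at D12S+, 1.28 at D16S+ and 0.865 in iPSCs, with 0.597 in D6 siNT, 0.911 in D6 siH3.3 and no peak in D9T-. The midpoint of this member lay 96 bp from the TSS of Gm15222 and 2920 bp from that of Bmp4. Nodal (chr10:60880726-60881495) had 0.430 CPM at D3 and 0.752 to 0.852 CPM afterwards. The Wnt effectors Lef1 (chr3:130814589-130815560), Tcf7 (chr11:52095896-52097226) and Tcf7l1, the Wnt target Axin2, the FGF receptor Fgfr1 (chr8:26655116-26655885), and the FGF response genes Etv4 (chr11:101633611-101634288), Spry2 and Dusp6 also held members. Etv4 had 1.06 CPM at D3, 1.54 at D6T-, 2.1 at D12S+, 1.98 at D16S+ and 1.69 in iPSCs. Of the 23 members of this list 11 came from Fgfr2, whose gene model in the annotation spans 3009 kb, takes in Ctbp2 and holds 146 D0 regions, so they cannot be assigned to that gene. The same holds for 30 members in the 4435 kb model Gm20388.

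Of the genes with a member in the other lists, Bub1 was the only one with no D0 region between its promoter and its TTS, although a member could lie far from that region. The promoter of Bub1 (chr2:127657203-127658124), a kinase of the spindle checkpoint, had 1.62 CPM at D3, 1.82 at D6T-, 1.02 at D12S+, 1.61 at D16S+ and 1.05 in iPSCs, 0.872 in D6 siNT and 0.589 in D6 siH3.3, and no peak in D9T-. It was the only one of the 9 listed genes without a D0 region in which the D3 level was over 1.5 CPM. Cell cycle genes also included Cdk4, Cdk6, Ccnd2, Ccnd3 and Cdkn2a, where the member at the promoter (chr4:88927863-88928805) had 2.15 CPM at D6T- and 0.489 in iPSCs. Chromatin genes included the DNA methyltransferase Dnmt3a (chr12:3891003-3892272) and the demethylase gene Kdm2b (chr5:123444442-123445185), with 0.728 and 0.959 CPM at D3 and 0.790 and 0.978 in iPSCs. Among RNA-binding proteins, the promoter of Lin28b (chr10:45205480-45206873), a repressor of let-7 miRNA maturation, had 0.761 CPM at D3 and 1.32 in iPSCs. The L1td1 member (chr4:98393110-98393870), with its midpoint in an exon 6 bp inside the gene, had 0.628 and 1.02. Mesenchymal genes with a member were Col1a1, Zeb2, Prrx1, Runx1 and Fosl1. The midpoint of the Col1a1 member lay 2036 bp from the TSS of Gm17329 and 6999 bp from that of Col1a1, so it cannot be assigned to Col1a1 alone. At Zeb2 (chr2:44972134-44973096), a repressor of epithelial genes, the levels were 0.761 CPM at D3, 1.12 at D6T-, 0.681 in D9T-, 0.908 at D12S+, 0.992 at D16S+ and 0.640 in iPSCs.

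**Figure D5:**
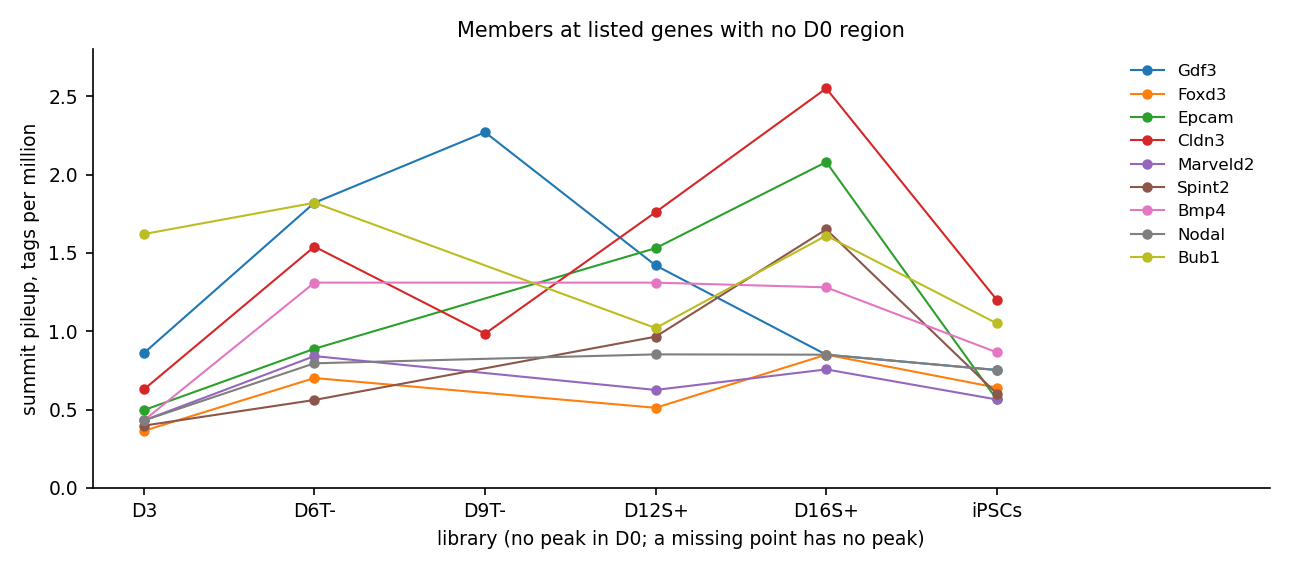
Summit pileup in CPM (vertical axis) of the strongest member at each of the 9 listed genes with no D0 region, in the time-course libraries after D0 (horizontal axis; 1 library each). A missing point has no peak and the line passes over it; Cldn3, Epcam and Spint2 were highest at D16S+ and Gdf3 in D9T-.

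Most members stood alone. When members under 10 kb apart were joined, 4044 of 4342 groups held 1 member, and 632 members (13.5%) lay in groups of at least 2. The largest group had 5 members over 33.7 kb on chromosome 8 (chr8:74178409-74212134) around Unc13a, Jak3 and Insl3, with 9 D0 regions in the same span. Groups of 4 included those at Eef2 and Pias4 (chr10:80631476-80640023) and at Eml2 (chr7:19758218-19766989), and both had no D0 region between the outer members. The next group had 3 members at Mdk, Chrm4 and Dgkz (chr2:91761295-91774040). Its D3 summits lay between 0.529 and 0.893 CPM and those at D16S+ between 1.04 and 1.98 CPM.

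The members differed widely in how the iPSC level compared with D3. The ratio was largest at the promoter of Gm14401 (chr2:176858468-176859423), with 0.364 CPM at D3, 0.561 at D6T-, 1.14 in D9T-, 3.07 at D12S+, 4.68 at D16S+ and 3.01 in iPSCs (8.27-fold) and no peak in the siRNA libraries. It was followed by introns of Cradd (chr10:94683101-94683552, 5.91-fold), Lrrc4b (chr7:51688594-51689263, 5.05-fold) and Crybg3 (chr16:59545150-59545620, 4.89-fold) and by a region 31306 bp from H2afz (chr3:137495793-137496498, 5.12-fold). All 5 were above 1.5 CPM in iPSCs and at most 0.529 CPM at D3.

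At the other end, 4 of the 5 smallest ratios shared a pattern across libraries. The region near Fcgr3 (chr1:173009157-173013028) had 12.0 CPM at D3, 16.1 at D6T-, 13.3 at D12S+ and 8.17 at D16S+, but 0.984 in D9T-, 0.602 in iPSCs, 0.689 in D6 siNT and 0.696 in D6 siH3.3. The neighbouring regions near 9230019H11Rik (chr10:7235997-7237166 and chr10:7231040-7234483) had 5.85 and 4.53 CPM at D3 and 6.57 and 6.99 at D16S+, 0.414 and 0.527 in iPSCs, and no peak in D9T- or the siRNA libraries. Muc19 (chr15:91738386-91739998), which encodes a mucin, had 6.85 CPM at D3, 3.41 at D6T-, 4.20 at D12S+ and 5.29 at D16S+, 0.978 in iPSCs, 0.780 in D6 siNT and no peak in D9T- or D6 siH3.3. In these regions D3, D6T-, D12S+ and D16S+ were thus high, and D9T-, iPSCs and the siRNA libraries low or without a peak. The order of the time-points does not match that split.

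The remaining one was the exon of Myc (chr15:61820710-61821586), with 8.14 CPM at D3, 2.62 at D6T-, 0.738 at D12S+, 0.661 at D16S+, 0.489 in iPSCs, 1.97 in D6 siNT and 1.87 in D6 siH3.3. The retroviruses carry the cDNA of the factors, so tags on exons of Myc, Sox2, Klf4 and Pou5f1 can come from the provirus or from the gene and cannot be told apart. Of the exonic regions of the factors that were not members, those of Sox2 (chr3:34547697-34550434) and Klf4 (chr4:55542402-55544800) also had their highest summits at D3, 12.4 and 15.6 CPM. The region over Pou5f1 was highest at D16S+, with 26.3 CPM against 24.7 at D3, and that over the start of Klf4 (chr4:55544989-55546513) at D12S+, with 2.67 against 2.05. The Myc region was the only member on an exon of these genes.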

How the data were processed

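The processed files are peak tables of 9 ATAC-Seq libraries, 1 per condition. Reads of 51 bp were aligned by the authors with STAR to mm9, duplicates were removed with Picard and peaks were called per library with MACS2 2.1.0.20151222 without a control, at a q-value cutoff of 0.05, with tags extended to 200 bp and no local background. The deposited pileup is a coverage signal, which counts the extended tags at a summit without scaling for depth. The deposited fold enrichment is a ratio to evenly spread tags and was not used. The authors' deposited −log10 p-value and −log10 q-value, from MACS2, score each summit.

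Summits of a peak were joined, peaks sharing at least 1 bp were merged into union regions, and pileups were divided by total tags (CPM). Positions came from GENCODE vM1 (NCBIM37, the same build as mm9), with 21418 protein-coding genes on chromosomes 1 to 19, and sequences from that genome. Regions are 1-based. Each of 19 motifs was searched on both strands within 200 bp. Regions were named by fixed rules: the 12 strongest members, up to 6 genes a list, the 5 largest groups, the 5 largest and 5 smallest ratios of iPSCs to D3, exons of the factor genes, and 3 regions on each side of the threshold; others are marked as chosen after their values were seen, and some items under these rules are not reported here. The members, motifs and gene lists were chosen with earlier results of these data known. Functions were tested on simulated data. Alternatives were the overlap, stricter peak thresholds, 1 floor for all libraries, distance to D0 peaks, D9T-, chromosome X, promoter and gene models, scaling, low tags and motif settings. No test was made, since no condition had a replicate. Python 3.11.15, numpy 2.4.6, pandas 2.3.3, scipy 1.17.1 and pysam 0.24.0 were used.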

Additional observations from a re-analysis of the deposited data

How the results depend on the processing

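The number of members was 2682 with the stronger 50% of the peaks, 2619 with equal numbers of the strongest peaks from each library, 2146 with D9T- required and 1279 (chosen after seeing the data) where the D3 summit at the common D0 to D3 ratio reached the D0 limit, against 4676; the other 5 definitions gave 4047 to 5179. The promoter share stayed between 23.6% and 40.0%: 30.0% with D3 peaks as the anchor, 36.8% with the stronger 50%, 40.0% with equal numbers of peaks, 33.5% with 1 floor, 25.6% with no D0 peak within 1 kb, 25.8% with D9T- required, 31.0% for the 1279, 25.5% with promoters reaching from 1 kb before to 100 bp after a TSS (8.88% of all regions) and 23.6% with protein-coding genes (11.4%). In the same order of definitions, the share called in D6 siNT was 49.4% (stronger 50%), 82.5% (equal numbers), 62.3% (1 floor), 77.2% (D9T- required) and 78.3% (the 1279), that in D6 siH3.3 was 79.2%, 64.1%, 76.0% and 76.0% for the last 4, and that in D9T- was 39.7% (stronger 50%), 83.4% (equal numbers), 60.5% (1 floor), 68.6% (the 1279) and 47.3% where the 5 libraries had a base in common. The composite share was 0.642% in 100 bp (0.303% of all regions), 1.60% in 400 bp (0.882%), 4.94% with 3 mismatches (3.81%), 0.235% with 1 (0.0552%), 0.898% around the centre of the region (0.547%) and 0.898% around the D3 summit (0.265% of regions called at D3). The median log2 ratio of D6 siH3.3 to D6 siNT was -0.0039 scaled on regions in all 9 libraries and 0.11 in the 377 members with at least 20 tags in both. Scaled in that way, the highest summit was in D6T- in 2.07% of the members, in D9T- in 16.6%, in D12S+ in 6.07%, in D16S+ in 13.7% and in iPSCs in 60.1%. The promoter and call shares of all regions were not computed with the stronger 50%, equal numbers or 1 floor. Those shares of members therefore have no matching background. Causes of these shifts were not tested. Median members held 17 to 24 tags in the libraries of the rule, so depth limits every call near the threshold.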
